A study of Rattus norvegicus albus with 14 samples.

Results

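Genes of the focal adhesion, 10 in all, were followed: the PINCH adaptors Lims1 and Lims2, the integrin-linked kinase gene Ilk, the parvins Parva and Parvb, the kindlin Fermt2, the talins Tln1 and Tln2, vinculin (Vcl) and zyxin (Zyx). They were taken by symbol from the deposited count tables, where 10 of 32545 genes matched, 1 entry each. The group was chosen by measured counts of these same libraries. The values of Lims2, which gave it its name, were taken as the ones used. The other 9 were listed by name when earlier results of these data were known, so counts of calls among them are a description. All 10 passed the filter on low counts that left 15655 genes for testing. The libraries came from ventricular myocytes of 1-day-old Sprague-Dawley rats, preplated to remove fibroblasts and cultured on fibronectin, an extracellular matrix protein that integrins bind. Cells received 1% DMSO alone for 0.5 h (1 library) or 10 µmol/L rosiglitazone, an agonist of the nuclear receptor PPARγ, in 1% DMSO for 0.5 h, 24 h or 48 h (2 libraries each). All groups therefore carried the same vehicle and the same matrix. The late times had no vehicle counterpart among the libraries, which means that hours with rosiglitazone and hours of culture cannot be told apart.

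Focal adhesions join integrins, the receptors for the extracellular matrix, to the actin cytoskeleton. A PINCH protein, integrin-linked kinase and a parvin form a stable complex that sits at the integrin tail, talins and kindlins bind that tail and switch the integrin to its active state, and vinculin and zyxin are recruited to the loaded talin and actin. In heart muscle the same proteins build the costamere, which ties the Z-disc of the sarcomere to the membrane.

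Levels are given in CPM, read counts scaled to the size of the library with TMM factors, and total counts per library lay between 10886559 and 28074620. The 48 h replicate 2 library was the shallowest. The level of a gene is not read as higher or lower than that of another, since counts were not divided by transcript length. Read shares, sums over genes and ratios to marker sums combine genes and are compared between libraries only. Each pair of deposited samples from a library differed by no more than sampling noise (chi-square over its degrees of freedom, 0.964 to 1.02) and was summed and counted as 1 library. Whether the libraries of 1 group stem from different cultures is not stated, and the spread behind each p-value may be technical. The SD of the log2 difference between replicates over all genes was 0.81 for the 0.5 h libraries, 1.60 for those of 24 h and 1.23 for those of 48 h. The 15 cardiomyocyte markers looked for had 14 in the tables, and their summed level was 9311 CPM with DMSO, 16540 and 15810 CPM at 0.5 h of rosiglitazone, 14310 and 3298 CPM at 24 h, and 398 and 1778 CPM at 48 h. The summed level of 11 fibroblast markers was 50370 to 51980 CPM in the 3 libraries of 0.5 h and 17550 to 35400 CPM in the 4 late ones. Fibroblast markers were therefore counted in every library, although the cells had been preplated to remove fibroblasts. Within that list Dcn, the proteoglycan decorin, rose from 0.5 h to 48 h (log2 fold change 2.85 ± 0.41, SE, edgeR adjusted p = 0.0149), while Col1a1, a type I collagen chain at 26090 CPM with DMSO, had -1.83 ± 0.45 (0.0565). In bulk RNA, fewer cells of a type and less RNA per cell cannot be told apart.

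Lims2 (ENSRNOG00000016021), which encodes PINCH-2, went from a moderate level at 0.5 h to a few reads at 48 h. It was counted at 18.4 CPM (520 reads) in the DMSO library, 33.4 and 35.0 CPM (948 and 962 reads) after 0.5 h of rosiglitazone, 1.53 and 3.13 CPM (35 and 83 reads) at 24 h, and 0.183 and 0 CPM (5 and 0 reads) at 48 h. The groups followed each other with no overlap, and both 0.5 h rosiglitazone libraries lay above the DMSO library. As Lims2 named the group, these levels are a description and carry no test. The 5 reads of 48 h replicate 1 have an exact Poisson interval of 1.62 to 11.7 reads, or 0.0594 to 0.427 CPM at a confidence level of 95%, which covers counting error only. Against the floor of 3 counts per library in 48 h replicate 2 (0.279 CPM), the 0.5 h rosiglitazone libraries were at least 120-fold and 125-fold higher, the DMSO library at least 65.9-fold and the 24 h libraries at least 5.48-fold and 11.2-fold. The fitted log2 fold change was 0.89 ± 0.73 (SE) for rosiglitazone against DMSO at 0.5 h and -3.87 ± 0.64 for 24 h against 0.5 h. With 1 of the 48 h libraries at 0, fitted values for that time depend on the prior count and are not given.

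Lims1 (ENSRNOG00000037765), which encodes PINCH-1, the paralogue that competes with PINCH-2 for integrin-linked kinase, had a different course. Its level was 89.2 CPM with DMSO, 82.2 and 75.1 CPM at 0.5 h of rosiglitazone, 34.8 and 81.3 CPM at 24 h, and 88.3 and 56.9 CPM at 48 h. The late libraries overlapped the early ones, and the 24 h replicates differed 2.33-fold. The log2 fold change of Lims1 from 0.5 h to 48 h was -0.11 ± 0.43 (SE, n = 2 libraries each, edgeR quasi-likelihood adjusted p = 0.916). Of the reads of the PINCH pair, Lims2 took 17.1% with DMSO, 28.9% and 31.8% at 0.5 h of rosiglitazone, 4.21% and 3.71% at 24 h, and 0.207% and 0% at 48 h. A share within a library does not depend on how libraries are scaled, and these shares separated by time with no overlap.

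**Figure D1:**
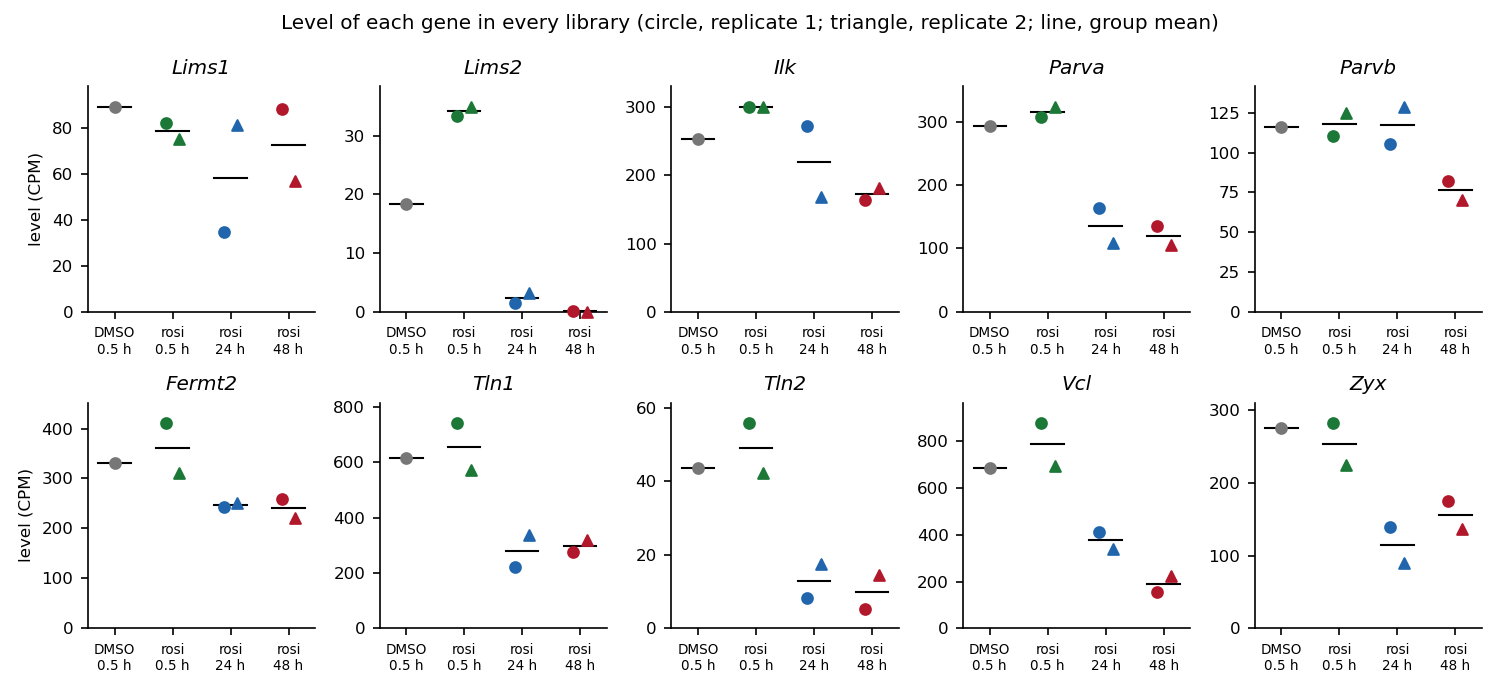
Level of the 10 genes in each of the 7 libraries (CPM, linear axes from 0; circles replicate 1, triangles replicate 2, lines group means, 1 library for DMSO). Lims2 is at 33.4 and 35.0 CPM after 0.5 h of rosiglitazone and at 0.183 and 0 CPM at 48 h, while the Lims1 libraries of 48 h, at 88.3 and 56.9 CPM, lie on both sides of the 0.5 h rosiglitazone libraries.

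The kinase and parvin genes, whose products hold PINCH at the integrin, differed from each other in course. Ilk (ENSRNOG00000018993), the scaffold of the complex, was at 252.5 CPM with DMSO, 299.2 and 300.6 CPM at 0.5 h of rosiglitazone, 271.6 and 167.7 CPM at 24 h, and 163.7 and 180.7 CPM at 48 h. All 48 h libraries of Ilk lay below all 0.5 h libraries, and the 24 h libraries overlapped both. Its log2 fold change from 0.5 h to 48 h, -0.80 ± 0.30 (SE, n = 2 each), did not pass (edgeR adjusted p = 0.164).

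Parva (ENSRNOG00000015713), alpha-parvin, binds the kinase and actin. Its level was 293.8 CPM with DMSO, 307.2 and 323.8 CPM at 0.5 h of rosiglitazone, 163.4 and 108.7 CPM at 24 h, and 134.8 and 105.9 CPM at 48 h. Every late library lay below every 0.5 h library. Parva fell 2.62-fold from 0.5 h to 48 h, a log2 fold change of -1.39 ± 0.30 (SE, n = 2 each, edgeR adjusted p = 0.04). That call was lost when any of the 4 libraries compared was left out (adjusted p 0.211 and 0.214 without 0.5 h replicate 1 and 2, 0.149 and 0.182 without 48 h replicate 1 and 2).

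Parvb (ENSRNOG00000055305), beta-parvin, which takes the place of alpha-parvin in a separate complex, showed no such step at 24 h. It was at 115.8 CPM with DMSO, 110.5 and 125.0 CPM at 0.5 h of rosiglitazone, 105.2 and 128.9 CPM at 24 h, and 82.3 and 70.1 CPM at 48 h. The 24 h libraries overlapped the 0.5 h ones and the 48 h libraries lay below all others. The log2 fold change from 24 h to 48 h was -0.62 ± 0.26 (SE, n = 2 each, edgeR adjusted p = 0.599).

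Within the parvin pair, Parvb took 28.3% of the reads with DMSO, 26.5% and 27.9% at 0.5 h of rosiglitazone, 39.2% and 54.3% at 24 h, and 37.9% and 39.8% at 48 h. The mean share was 42.8% ± 7.68 (SD, n = 4) in the late libraries and 27.5% ± 0.951 (SD, n = 3) in the 0.5 h libraries of both treatments, a difference of 15.3 percentage points (two-sided exact permutation p = 0.0571 as 2 times the smaller tail). Over the 35 relabellings, 0.0571 is the smallest p that this way of counting allows, and counted on the absolute difference, a choice made after the data were seen, the exact p was 0.0286. Both parvin genes' values enter the share, and the larger share of Parvb stood beside lower Parva levels, with the Parvb level above the early libraries in 24 h replicate 2 alone.

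The genes for the integrin activators were lower in the late libraries to different degrees. Fermt2 (ENSRNOG00000009102), kindlin-2, was at 331.4 CPM with DMSO, 411.0 and 311.0 CPM at 0.5 h of rosiglitazone, 242.3 and 250.8 CPM at 24 h, and 259.3 and 221.7 CPM at 48 h. Its late libraries lay below all 0.5 h libraries, and its log2 fold change over all 4 late against 3 early libraries, -0.53 ± 0.17 (SE), did not pass (edgeR adjusted p = 0.0662).

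Tln1 (ENSRNOG00000016630), the widely expressed talin, was at 616.9 CPM with DMSO, 742.8 and 572.8 CPM at 0.5 h of rosiglitazone, 220.8 and 339.2 CPM at 24 h, and 274.4 and 318.3 CPM at 48 h. The late libraries all lay below the early ones, and the 24 h and 48 h libraries overlapped. Tln2 (ENSRNOG00000018373), the talin enriched in striated muscle and brain, was at 43.5 CPM with DMSO, 55.8 and 42.3 CPM at 0.5 h of rosiglitazone, 8.22 and 17.5 CPM at 24 h, and 5.20 and 14.5 CPM at 48 h. Late and early libraries again did not overlap, and the replicates of Tln2 differed 2.13-fold at 24 h and 2.79-fold at 48 h, replicate 2 being the higher each time.

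In the fit of 4 late against 3 early libraries Tln2 fell by 2.06 ± 0.39 (SE) on the log2 scale (edgeR adjusted p = 0.0123) and Tln1 by 1.16 ± 0.20 (edgeR adjusted p = 0.00917). The Tln2 call was lost without the DMSO library (adjusted p = 0.051) and without 0.5 h rosiglitazone replicate 1 (0.0652), and the Tln1 call without the latter (0.056). From 0.5 h to 48 h of rosiglitazone alone neither talin passed (edgeR adjusted p = 0.0592 for Tln2 and 0.0781 for Tln1). Tln2 made up 6.58% of the talin reads with DMSO, 6.99% and 6.87% at 0.5 h of rosiglitazone, 3.59% and 4.91% at 24 h, and 1.86% and 4.36% at 48 h. The mean was 3.68% ± 1.33 (SD, n = 4) late and 6.81% ± 0.21 (SD, n = 3) early (difference -3.13 percentage points, two-sided exact permutation p = 0.0571 as 2 times the smaller tail, and 0.0286 on the absolute difference).

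**Figure D2:**
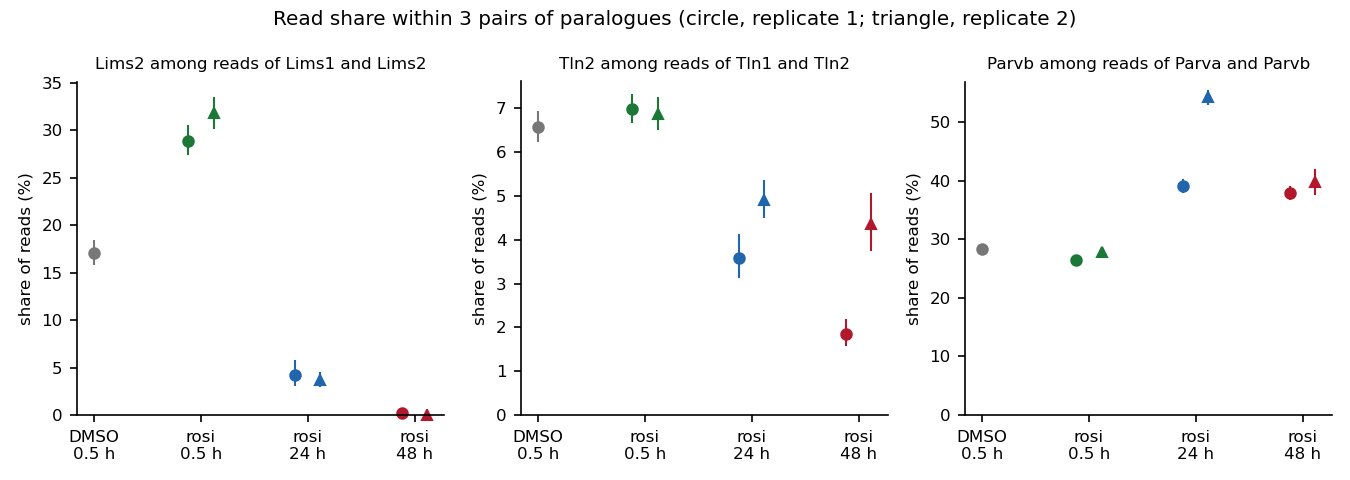
Share of the reads of each paralogue pair taken by Lims2, Tln2 and Parvb in each library (%, axes from 0; bars are Wilson intervals at 95% confidence for counting error, circles replicate 1, triangles replicate 2). Lims2 and Tln2 take smaller shares at 24 and 48 h than at 0.5 h, and Parvb takes a larger share, with 54.3% in 24 h replicate 2 standing above the other late libraries.

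Vcl (ENSRNOG00000010765), vinculin, which links talin to actin and is a standard costamere protein, stepped down at each time. It was at 687.5 CPM with DMSO, 878.7 and 696.3 CPM at 0.5 h of rosiglitazone, 413.2 and 338.6 CPM at 24 h, and 156.3 and 225.8 CPM at 48 h. The 3 rosiglitazone times did not overlap. Vcl fell 4.12-fold from 0.5 h to 48 h, a log2 fold change of -2.04 ± 0.32 (SE, n = 2 each, edgeR adjusted p = 0.0163). Without 1 library the adjusted p was 0.124 and 0.0733 (0.5 h replicate 1 and 2) and 0.118 and 0.0506 (48 h replicate 1 and 2), so the call needed all 4. The single steps did not pass: -1.07 ± 0.31 on the log2 scale from 0.5 h to 24 h (edgeR adjusted p = 0.171) and -0.98 ± 0.31 from 24 h to 48 h (0.418).

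Zyx (ENSRNOG00000017354), zyxin, an actin-binding LIM protein of mature adhesions and stress fibres, had its lowest library at 24 h. It was at 275.1 CPM with DMSO, 282.6 and 224.8 CPM at 0.5 h of rosiglitazone, 138.8 and 90.5 CPM at 24 h, and 175.7 and 136.1 CPM at 48 h. Late and early libraries did not overlap, while the 24 h and 48 h libraries did. Zyx fell by 0.95 ± 0.23 (SE) on the log2 scale in the 4 late against the 3 early libraries (edgeR adjusted p = 0.0271), a call lost without the DMSO library (0.111), 0.5 h rosiglitazone replicate 1 (0.111) or 2 (0.0652), or 48 h replicate 2 (0.0766).

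Rosiglitazone against DMSO at 0.5 h, the only comparison with a vehicle at the same time, gave no call among the 10 genes. In the 2 drug libraries Ilk, Lims2, Parva and Vcl were above the single DMSO library and Lims1 was below it, beside 30.2% of all tested genes that were above and 31.8% that were below in the same way. Apart from Lims2, no log2 fold change in this comparison was larger than that of Ilk, 0.25 ± 0.37 (SE), and the edgeR adjusted p was 1 for each. Over all genes edgeR called 0 (percent called 0, smallest adjusted p 0.288) and DESeq2 called 2, while 95 genes (0.607%) had an unadjusted edgeR p under 0.05. The authors' deposited table gives Ilk a log2 fold change of 0.24 with an SE of 0.0658 and an adjusted p of 0.00414 here, in a comparison where it calls 11.0% of its genes. It lists the 2 deposited samples of each library as separate columns, so its p-values may count a library more than once.

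From 0.5 h to 24 h of rosiglitazone all 10 fitted log2 fold changes were below 0, as were 51.2% of all genes, with a median of -1.11 beside -0.03 over all genes. Lims2 enters this median and the counts of the 10. The middle value of the other 9 was that of Vcl, -1.07. Of the 10, 8 had both 24 h libraries below both 0.5 h libraries, the exceptions being Lims1 and Parvb, beside 28.9% of all genes. None of the 9 genes tested passed, where edgeR called 15 of 15655 genes (0.0958%), and 0.0447% of genes as lower. The 5 of 9 with an unadjusted p under 0.05 and a lower level, beside 9.12% of all genes, were Parva, Tln1, Tln2, Vcl and Zyx, with log2 fold changes of -1.21 ± 0.30, -1.23 ± 0.32, -1.93 ± 0.57, -1.07 ± 0.31 and -1.15 ± 0.31 (SE) and edgeR adjusted p between 0.126 and 0.176. The authors' deposited table gives Parva -1.18 with an adjusted p of 6.46e-11 and Zyx -1.11 with 1.16e-07, in a comparison where it calls 39.0% of its genes. Here too the 2 deposited samples of each library stand as separate columns, so these p-values may count a library more than once.

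From 24 h to 48 h the genes parted: 7 of 10 log2 fold changes were below 0, beside 50.8% of all genes, with a median of -0.26 beside -0.01 over all genes. Lims2 is among the 7, and without it the middle value was that of Parva, -0.18. Only for Lims2, Parvb and Vcl did both 48 h libraries lie below both 24 h libraries, beside 14.6% of all genes. edgeR called 0 genes (percent called 0, smallest adjusted p 0.161), with 1274 (8.14%) at an unadjusted p under 0.05, and DESeq2 called 492. Zyx had a log2 fold change of 0.44 ± 0.31 (SE, edgeR adjusted p = 0.764) and Lims1 of 0.32 ± 0.43 (0.923).

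Over the whole course, 0.5 h to 48 h, Parva and Vcl were the 2 of 9 tested genes that edgeR called lower. Of all genes, 4.62% were called lower, 1.97% higher and 6.59% in either direction. In 9 of the 10 genes, all but Lims1, both 48 h libraries were below both 0.5 h libraries, beside 34.4% of all genes. The median log2 fold change of the 10 was -0.98 beside -0.07 over all genes. Lims2 enters this median and the counts of the 10. The middle value of the other 9 was that of Ilk, -0.80. When the 4 late libraries were set against the 3 libraries of 0.5 h, DMSO included, Parva, Tln1, Tln2, Vcl and Zyx were called lower, 5 of 9 tested. In that fit 7.32% of all genes were called lower, 6.73% higher and 14.0% in either direction. All late libraries lay below all early ones in 7 of the 10, not in Ilk, Lims1 and Parvb, beside 19.5% of all genes. Parva had a log2 fold change of -1.27 ± 0.19 (SE, edgeR adjusted p = 0.00608) there and kept its call without each of the 7 libraries in turn (adjusted p 0.000807 to 0.0403), and Vcl had -1.41 ± 0.31 (0.0209), lost without the DMSO library (0.0716), 0.5 h rosiglitazone replicate 1 (0.096) or 2 (0.0638) or 48 h replicate 2 (0.0706). The comparisons share libraries and are not independent of each other.

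**Figure D3:**
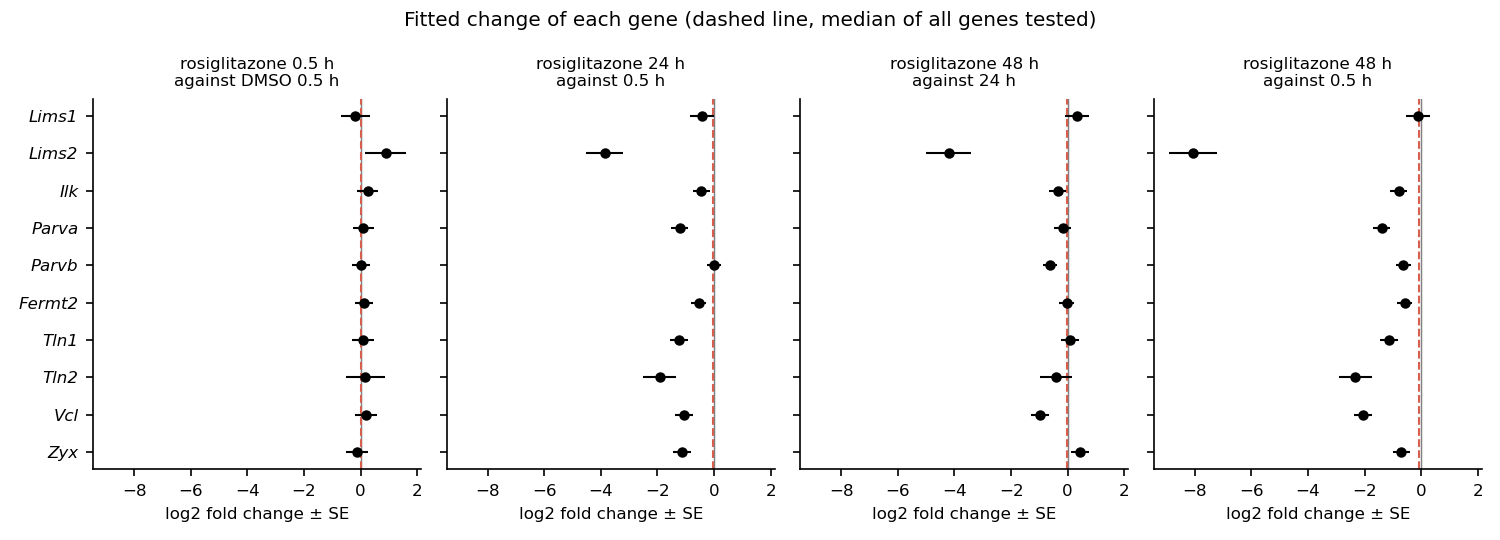
Fitted log2 fold change ± SE of the 10 genes in 4 comparisons (x axis, log2 scale; dashed line, median of all 15655 genes). Parvb lies near the dashed line at 24 h, Parva and Vcl are at -1.39 and -2.04 for 48 h against 0.5 h, and Lims2, shown with no test, lies far to the left, where its 48 h values depend on the prior count.

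Summed over the 10 genes, the level was 2724 CPM with DMSO, 3203 and 2707 CPM at 0.5 h of rosiglitazone, 1600 and 1526 CPM at 24 h, and 1340 and 1330 CPM at 48 h. The late sums all lay below the early ones, and the replicates within 24 h and within 48 h were close. The cardiomyocyte marker sum was not close between the 24 h replicates, at 14310 and 3298 CPM. In 24 h replicate 1 that sum was above the DMSO library and below both 0.5 h rosiglitazone libraries. Its genes were split in that library. Myh6 was at 385 CPM and Actc1 at 1058 CPM, below the 963 and 1423 CPM with DMSO. Tnnt2 was at 3215 CPM and Tnnc1 at 1608 CPM, above the 1289 and 512 CPM with DMSO. Lims2 was at 1.53 CPM and Tln2 at 8.22 CPM in the same library, and their relation to cardiomyocyte content was not tested. Per 1000 CPM of cardiomyocyte markers, Lims2 stood at 1.97 CPM with DMSO, 2.02 and 2.21 CPM at 0.5 h of rosiglitazone, 0.107 and 0.948 CPM at 24 h, and 0.459 and 0 CPM at 48 h. On this ratio both 48 h libraries lay above all 3 early ones for each of the other 9 genes, as for Tln2 (4.67, 3.37 and 2.67 CPM early, 13.0 and 8.16 CPM at 48 h) and Vcl (73.8, 53.1 and 44.0 CPM early, 392 and 127 CPM at 48 h). The marker sum itself was 398 and 1778 CPM at 48 h, so a gene that fell less than it rises on this ratio. Per 1000 CPM of smooth muscle markers these 9 genes again lay above all early libraries at 48 h. Per 1000 CPM of fibroblast markers, Lims2, Vcl and Tln2 were lower at 48 h than in every early library. Vcl was at 13.2, 17.4 and 13.4 CPM early and 8.91 and 6.62 CPM at 48 h. For the rest, 48 h replicate 1 lay above all early libraries and replicate 2 did not. The make-up of the fibroblast sum also changed, so this ratio is not a level per fibroblast. Col1a1 was at 26090 CPM with DMSO and 4750 and 10580 CPM at 48 h, and Dcn at 946 CPM with DMSO and 8477 and 4549 CPM at 48 h.

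Other marker lists moved over the same times. The summed smooth muscle markers (10 genes) were at 4005 to 4774 CPM in the 0.5 h libraries and 343 to 1481 CPM in the late ones, endothelial markers (8 genes) at 176 to 210 and 44.5 to 109 CPM, and mesothelial markers (8 genes) at 308 to 329 and 67.6 to 187 CPM. Macrophage markers (11 genes) were at 679 CPM in the DMSO library, 211 and 271 CPM at 0.5 h of rosiglitazone and 68.6 to 145 CPM later. Not all genes of a list moved alike. All late libraries lay below all early ones for 9 of 10 smooth muscle, 5 of 8 endothelial, 7 of 8 mesothelial, 7 of 11 macrophage, 6 of 14 cardiomyocyte and 4 of 11 fibroblast markers, beside 19.5% of all genes tested. They all lay above the early ones for 1 fibroblast marker and 0 in the other 5 lists, beside 14.2% of all genes tested. Endothelial Egfl7 and Esam, for instance, were at 21.4 and 13.2 CPM in 24 h replicate 1, above every early library, and the macrophage marker Adgre1 was at 2.01 and 2.84 CPM at 0.5 h of rosiglitazone and 5.23 and 2.60 CPM at 48 h. Read as 0 in at least 1 late library were 1 smooth muscle marker (Rgs5), 1 endothelial (Vwf), 2 macrophage (Fcgr3a and Adgre1), 3 mesothelial (Krt19, Upk3b and Lrrn4), 2 fibroblast (Thy1 and Mfap5) and 0 cardiomyocyte markers. Glial markers (6 genes) stayed between 7.16 and 12.3 CPM and red cell genes (5 genes) between 108 and 423 CPM. The part of these cell types in the levels of the 10 genes was not tested.

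**Figure D4:**
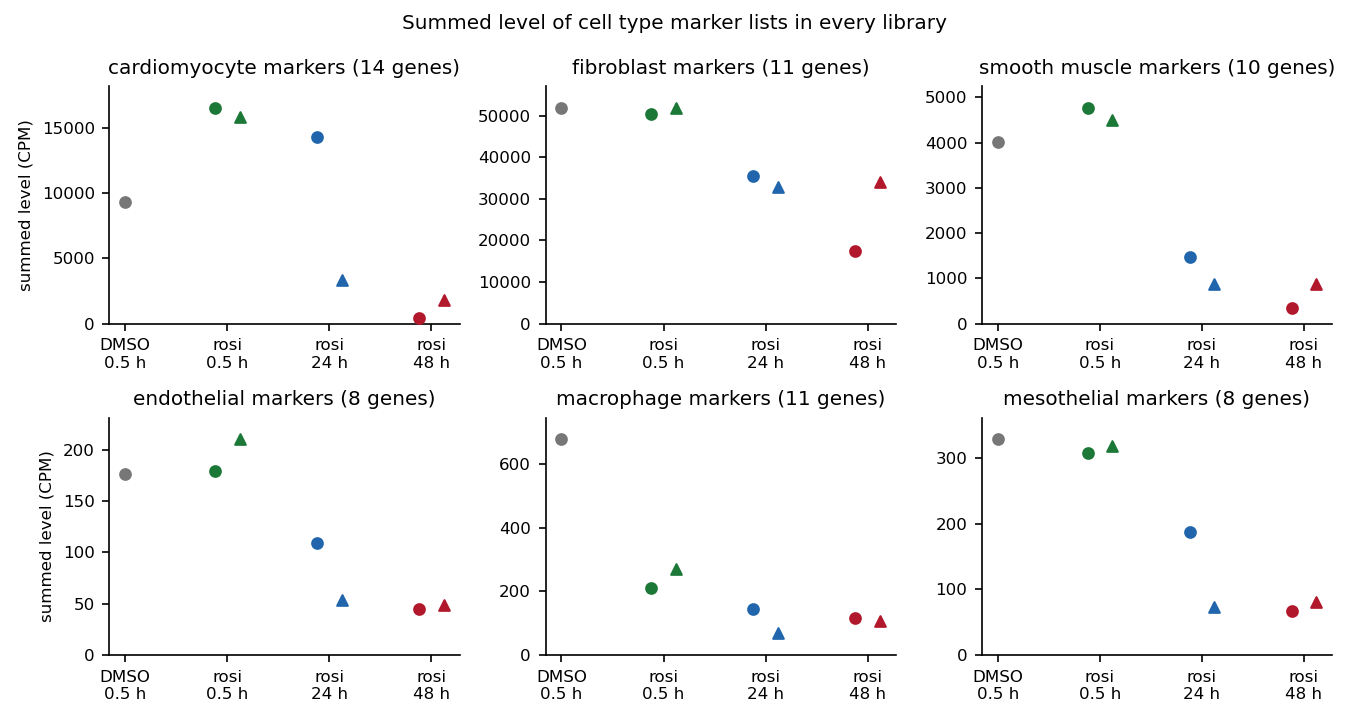
Summed level of 6 lists of cell type markers in each library (CPM, linear axes from 0; circles replicate 1, triangles replicate 2). Cardiomyocyte markers are at 14310 and 3298 CPM in the 24 h libraries, and smooth muscle, fibroblast, endothelial and mesothelial sums are lower in all 4 late libraries than in the 3 libraries of 0.5 h.

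The genes whose course was most like that of Lims2 were Iqgap3, Heyl, Lrrn4, Cep55 and Fam111a. Likeness was the root mean square difference of log2 CPM, centred per gene, over the 7 libraries, and these 5 had the smallest values, 0.74 to 0.94, of 9214 genes with a mean of at least 10 CPM. Heyl, a Notch target transcription factor, was at 19.1 CPM with DMSO, 41.4 and 36.6 CPM at 0.5 h of rosiglitazone, 5.38 and 3.13 CPM at 24 h, and 0.622 and 0.279 CPM at 48 h, with both 0.5 h drug libraries above DMSO as for Lims2. Heyl and Fam111a were no longer among the nearest 5 with a prior count of 0.5 in place of 2. Iqgap3, a scaffold protein of dividing cells, went from 31.2 CPM with DMSO to 0.549 and 0 CPM at 48 h, and Cep55, needed for the last step of cell division, from 27.2 to 0.439 and 0 CPM. Lrrn4, which is also among the mesothelial markers, went from 41.5 to 0.476 and 0 CPM. None of the other 9 adhesion genes was near: Tln2 ranked 471 of 9214 and Vcl 595, with distances of 2.32 and 2.43, and Lims1 ranked 2826.

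Related genes were taken from lists of the adhesion pathway, and the counts that follow rest on all libraries: over all genes, calls from 0.5 h to 48 h ranged from 12 to 2706 when 1 library was left out. Relatives of the PINCH, kinase, parvin and kindlin proteins gave no call in any comparison, 0 of 5 tested. Rsu1, the Ras suppressor that binds PINCH-1, was at 41.4 CPM with DMSO, 38.6 and 38.2 CPM at 0.5 h of rosiglitazone, 31.0 and 25.7 CPM at 24 h, and 22.9 and 20.3 CPM at 48 h. Its libraries ordered by time with no overlap, with a log2 fold change of -0.66 ± 0.21 (SE) for late against early libraries (edgeR adjusted p = 0.0647). Nck2, an adaptor that also binds PINCH, had -0.41 ± 0.19 (0.173).

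Among 29 scaffold and kinase genes of the adhesion, edgeR called 7 lower and 0 higher from 0.5 h to 48 h (all genes: 4.62% lower, 1.97% higher). The median log2 fold change was -0.45. Both 48 h libraries lay below both 0.5 h libraries for 17 of the 29 and above them for 5, beside 34.4% and 28.3% of all genes. In the late against early libraries 9 were called lower and 1 higher (all genes: 7.32% lower, 6.73% higher). Tgfb1i1 (Hic-5), a paxillin relative, fell by 3.07 ± 0.41 (SE) on the log2 scale from 0.5 h to 48 h (edgeR adjusted p = 0.0128), from 138.8 and 152.8 CPM to 15.3 and 19.5 CPM. Tns1 (tensin 1), which ties integrin tails to actin, fell by 3.06 ± 0.41 (0.0131), from 367.5 and 230.2 CPM to 29.6 and 42.3 CPM. Pak1, a kinase acting downstream of Rac, fell by 3.47 ± 0.53 (0.0161). The gene called higher was Layn, a hyaluronan receptor that binds talin (late against early edgeR adjusted p = 0.0493), named after its value was seen.

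Of the 32 genes that link adhesions to actin, edgeR called 16 lower and 0 higher over the whole course (all genes: 4.62% lower, 1.97% higher). The median log2 fold change was -1.90, and 15 were called lower late against early (all genes: 7.32% lower). Actn1, the non-muscle alpha-actinin, fell by 2.41 ± 0.29 (SE) on the log2 scale (edgeR adjusted p = 0.0106), from 607.6 and 436.2 CPM at 0.5 h to 98.8 and 98.0 CPM at 48 h. Synpo2, an actin-bundling protein of muscle, fell by 5.41 ± 0.68 (0.0117), and Sorbs2, which binds vinculin, fell by 3.82 ± 0.51 (0.0128). Flna, the actin crosslinker filamin A, was at 2381, 2824 and 2246 CPM in the early libraries and 503 to 699 CPM in the 4 late ones, and fell by 2.11 ± 0.20 (late against early edgeR adjusted p = 0.00319).

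Of 19 integrin genes and integrin-binding partners, edgeR called 5 lower and 0 higher over the whole course (all genes: 4.62% lower, 1.97% higher), with a median log2 fold change of -1.02. Itga11, the collagen-binding alpha-11 chain of fibroblasts, was the 1 gene of this list called at 24 h. It was at 40.0 CPM with DMSO, 67.0 and 50.9 CPM at 0.5 h, 1.36 and 2.60 CPM at 24 h and 1.32 and 1.12 CPM at 48 h, and fell by 4.89 ± 0.47 (SE) on the log2 scale from 0.5 h to 24 h (edgeR adjusted p = 0.0203). Itga7, the laminin-binding chain of striated muscle, fell by 1.85 ± 0.30 from 0.5 h to 48 h (0.0179). Itga6 and Itga4 fell by 3.91 ± 0.51 (0.0126) and 4.51 ± 0.66 (0.0156). Late against early, 9 were called lower and 1 higher, beside 7.32% lower and 6.73% higher over all genes. The gene called higher was Itgb1bp1, which binds the beta-1 tail and competes with talin (0.91 ± 0.19, edgeR adjusted p = 0.0173), named after its value was seen.

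Of 25 actin and adhesion genes under serum response factor (SRF), a transcription factor whose MRTF coactivators bind free actin, edgeR called 11 lower and 0 higher from 0.5 h to 48 h (all genes: 4.62% lower, 1.97% higher). The median log2 fold change was -1.91. Cyr61, a matricellular integrin ligand, already fell by 4.20 ± 0.38 (SE) on the log2 scale at 24 h (edgeR adjusted p = 0.0193), from 1437 and 1370 CPM to 98.0 and 55.0 CPM. With DMSO it was at 680.6 CPM, below both 0.5 h rosiglitazone libraries. Myocd, the SRF coactivator myocardin, fell by 5.13 ± 0.51 over the whole course (0.00664), from 43.9 and 29.5 CPM (23.5 CPM with DMSO) to 1.21 and 0.837 CPM. Actb, beta-actin, was at 3325 to 3776 CPM in the early libraries and 792 to 1123 CPM in the late ones (late against early log2 fold change -1.90 ± 0.20, edgeR adjusted p = 0.0037). Acta2, Tagln and Cnn1 of this list are also among the smooth muscle markers, whose sum was lower in the late libraries (above). The part of smooth muscle cells in the values of this list was not tested.

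Of 21 costamere genes, edgeR called 9 lower and 0 higher from 0.5 h to 48 h (all genes: 4.62% lower, 1.97% higher). The median log2 fold change was -2.14, and 6 were called lower late against early (all genes: 7.32% lower). Xirp2, an actin-binding protein of the intercalated disc, fell by 5.08 ± 0.72 (SE) on the log2 scale (edgeR adjusted p = 0.0148), Myom1, an M-band protein, by 4.12 ± 0.59 (0.0151), and Synm, a muscle intermediate filament protein that binds vinculin, by 3.00 ± 0.45 (0.0157). The cardiomyocyte marker sum was lower at 48 h (above), with 12 of its 14 genes called lower from 0.5 h to 48 h, and its part in the costamere values was not tested.

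**Figure D5:**
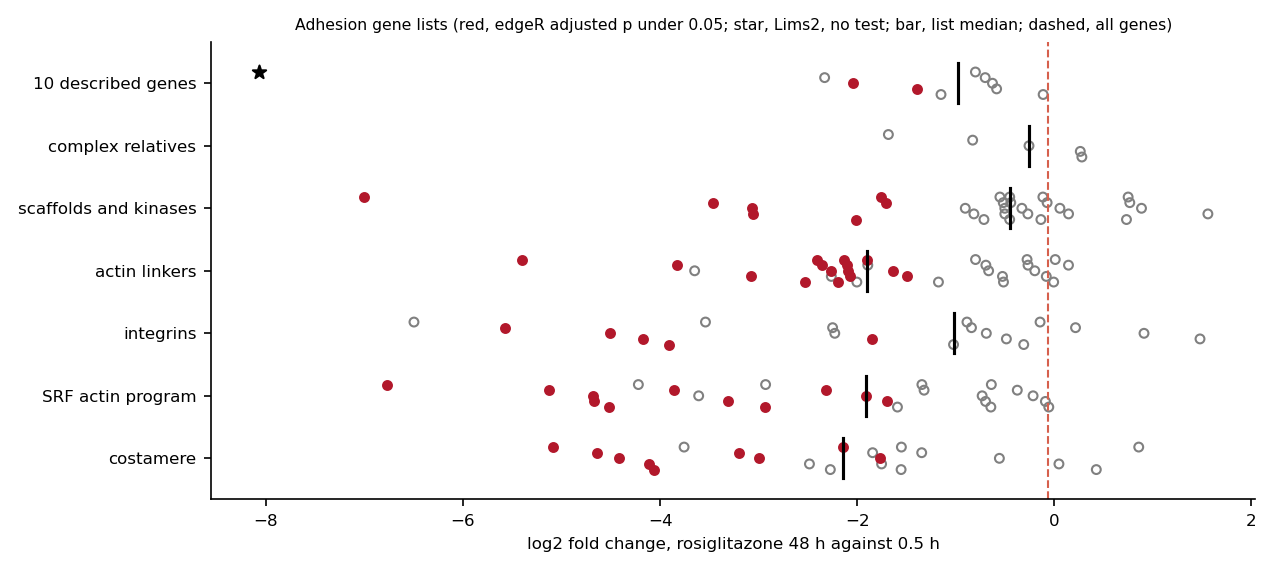
Fitted log2 fold change from 0.5 h to 48 h of rosiglitazone for the 10 genes and 6 lists of related genes (points are genes; red, edgeR adjusted p under 0.05; open, not called; star, Lims2, no test; bars, list medians; dashed line, median of all genes at -0.07). The bars of the actin linkers, SRF genes and costamere genes lie at -1.90, -1.91 and -2.14, and that of the 10 genes, Lims2 included, at -0.98.

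Neighbouring genes could share reads with some of the 10. In the RefSeq annotation of GRCr8, a later build than the Rnor_6.0 named by the submitters, Lims2 overlaps Gpr17 and Myo7b, which had 9 and 55 reads in all libraries beside 2553 for Lims2. Ilk overlaps Taf10 (7792 reads beside 40988) and Tln1 overlaps Creb3 (17246 beside 79269), so reads at those ends may be split between neighbours, depending on a strand setting that is not given in the sources used here. The identity of the rat protein to its human counterpart, as the deposited tables list it, was 99.6% for Ilk, 98.9% for Parva, 98.6% for both talins and 98.2% for Vcl, and it was lower for Lims2 (90.0%), Zyx (87.9%) and Parvb (84.1%).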

How the data were processed

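Raw gene counts were deposited by the authors in 3 tables, with their log2 fold changes and adjusted p-values and the percent identity to human homologues. Per the submitters' processing notes, FastQC 0.11.5, cutadapt 1.11, HTSeq and DESeq2 were used, with Rnor_6.0 and hg19 named as builds. For the aligner and the strand setting, no value is given in the sources used here. The 2 deposited samples of each of 7 libraries were summed after a chi-square check, and 0 count columns were left unused. Counts were scaled by TMM, filtered with filterByExpr and tested with edgeR 4.0.16 (R 4.3.3, quasi-likelihood, robust, 4 groups in 1 fit, 3 residual degrees of freedom; late against 0.5 h in a fit of 2 groups, 5 residual degrees of freedom), with Benjamini-Hochberg adjustment over 15655 genes at 0.05. DESeq2 1.42.0, other filters, each library left out and a replicate block were alternatives. Read shares were compared by exact permutation (scipy 1.17.1). The script was tested on simulated data, where calls had the right direction but more of them were false than the adjusted p threshold implies. The members and lists were chosen with earlier results of these data known. Named were the 10 genes, per list up to 4 genes with the smallest p among those called (otherwise up to 2 with a mean of at least 10 CPM), and the 5 nearest to Lims2 (prior count 2); not every gene so named is printed.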

Additional observations from a re-analysis of the deposited data

How the results depend on the processing

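Of 612 log2 fold changes under the alternatives of the 9 genes other than Lims2, 527 kept direction and side of the threshold, 41 came past it, 21 lost it and 23 changed sign. No value that changed sign exceeded 0.44 in size in the reported fit. Behind the 612 stand 45 reported values. Only those called, 2 from 0.5 h to 48 h and 5 late against early, could lose a call, so most of the 527 stayed uncalled. The cause of the changes was not tested. DESeq2 size factors changed no call and moved the median of all genes by at most 0.02 (log2). Counts are given below for rosiglitazone 0.5 h against DMSO, 24 h against 0.5 h, 48 h against 24 h, 48 h against 0.5 h and late against early, in that order. They count Lims2, whose levels carry no test, so the reported 0, 0, 0, 3 and 6 calls among the 10 genes stand for 0, 0, 0, 2 and 5 others. Counts of the 10 under the alternatives may likewise include Lims2, or rest on Lims2 alone.

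The DESeq2 test called 2, 1212, 492, 2547 and 3551 genes (0, 6, 1, 5 and 7 of the 10), against 0, 15, 0, 1031 and 2199 with edgeR. With each deposited sample as its own replicate, which counts a library more than once, 78, 5629, 2890, 6943 and 6902 genes were called (0, 8, 3, 9 and 8 of the 10). With no filter the counts were 1, 334, 19, 1265 and 1990 (0, 1, 0, 5 and 6). With only the groups compared in the fit they were 174, 0, 0 and 2733 (0, 0, 0 and 6), with no such fit for late against early, and Parvb from 0.5 h to 24 h turned to 0.012. A mean of at least 5 CPM gave 3 and 7 of the 10 in the last pair of comparisons.

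The labels number the replicates without saying whether the numbers pair the libraries. Deviations of same-numbered libraries correlated at -0.08 (0.5 and 24 h), 0.06 (0.5 and 48 h) and -0.12 (24 and 48 h). Such correlations cannot show whether the libraries were paired. With a replicate block the counts were 0, 1, 0, 407 and 1327 genes (0, 0, 0, 1 and 6 of the 10), and in the DMSO comparison Parvb turned to -0.018, Tln2 to -0.095 and Zyx to 0.094.

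With 1 library left out at a time, genes called ranged over 0 to 0, 0 to 1008, 0 to 509, 12 to 2706 and 398 to 3829, and calls among the 10 over 0 to 0, 0 to 3, 0 to 1, 0 to 6 and 1 to 7; an arm left with 1 library is assumed to vary like the others, and without the DMSO library the first comparison has no value. Log2 fold changes that changed sign ranged, against DMSO, from -0.092 to 0.31 (Fermt2), -0.11 to 0.27 (Tln1), -0.040 to 0.36 (Tln2), -0.068 to 0.11 (Parvb) and -0.29 to 0.039 (Zyx). From 0.5 h to 24 h they ranged from -0.18 to 0.13 (Parvb) and -1.19 to 0.044 (Lims1). From 24 h to 48 h they ranged from -0.15 to 1.05 (Lims1), -0.67 to 0.046 (Ilk), -0.45 to 0.16 (Parva), -0.19 to 0.41 (Tln1), -1.31 to 0.22 (Tln2) and -0.17 to 0.073 (Fermt2), and from 0.5 h to 48 h from -0.50 to 0.17 (Lims1). Counted on the absolute difference, a choice made after seeing the data, the exact p of the read shares was 0.0286 in place of 0.0571, for Tln2 (-3.13 points) and Parvb (15.3). With 1 library left out these differences kept their sign, from -3.54 to -2.53 percentage points for Tln2 and 11.4 to 16.9 for Parvb. With a prior count of 0.5, 3 of the 5 genes nearest to Lims2 were the same, Heyl and Fam111a being lost. On simulated data more of the calls were false than the threshold implies, in each comparison, so adjusted p-values near 0.05 are weak. Depth limits Lims2 at 48 h, where 5 and 0 reads were counted.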
